A study of Mus musculus with 96 samples.

Results

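Solute carriers are the membrane proteins that move amino acids, sugars, nucleotides, metals, inorganic ions and vitamins into cells and between their compartments. The genes described here are the mouse rows whose symbol begins with Slc and a number, leaving out Slc2a1, Slc2a3, Slc38a4, Slc11a2 and Slc40a1, whose reads averaged 50 or more over the cells. Of 355 such symbols, 350 fell under the rule, 66 of these had no read in any cell, and 134 reached the minimum; the whole table held 23284 gene rows. Just inside the minimum were Slc12a8 with a mean of 51.7 reads, Slc29a3 with 51.7 and Slc16a6 with 51.3, and just outside it Slc26a10 with 48.7, Slc27a1 with 47.9 and Slc4a3 with 47.8.

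The 48 single cells came from J1, a mouse embryonic stem (ES) cell line, at passage 12 to 20, all kept without feeders in serum and leukaemia inhibitory factor (LIF), untreated and with no engineered allele named in the labels. They were captured on a microfluidic chip, and SMARTer cDNA of each cell was sequenced on 2 lanes, which were summed. ES cells in serum hold a minority that carries the programme of primitive endoderm, the embryonic layer that lines the yolk sac, and Gata6 is a transcription factor of that layer. Levels are in CPM, a gene's reads scaled to the library total after that total was adjusted by a composition factor of the cell (TMMwsp), so that a CPM is not a plain share of the reads. Cells over 20 CPM of Gata6 are called Gata6-high (13 cells, 63.7 to 808 CPM) and the others Gata6-low (35 cells, at most 1.11 CPM). All 48 cells form 1 sample, because the labels name no separate cultures. Differences between the states are therefore given as values of these cells, with no test.

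Carriers are sorted into families by sequence, and members of 1 family usually share a kind of substrate. Those of the plasma membrane set what a cell can take up, those of the Golgi and endoplasmic reticulum supply the donors for glycan synthesis, and those of the inner mitochondrial membrane link the cytosol to respiration. Several work only with a partner, such as the heavy chain Slc3a2 for Slc7 light chains and basigin for lactate carriers. ES cells depend on amino acid supply, and their exit from pluripotency is accompanied by shifts in metabolism.

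Gata6-high cells had 5991691 to 8870973 reads in genes (median 8076614), and Gata6-low cells 4408953 to 9767245 (median 6419369). Marker lists were drawn up with results of these cells known. All 9 primitive endoderm genes that reached the read minimum were higher in Gata6-high cells. Gata6 is among them, and its being higher was fixed by the split of the cells. The sum over all 10 listed genes includes Gata6, and also Foxa2, which lay under the minimum. It was 8544 to 28907 CPM in Gata6-high cells, against 38.0 to 1368 CPM in Gata6-low cells. Of 8 naive pluripotency genes 6 were lower by at least 2-fold, and of 5 core genes 4. The trophoblast factor Cdx2, the mesoderm factors T and Mesp1 and the 2-cell genes Zscan4c, Zscan4d and Zscan4f had no read. Other trophoblast and mesoderm genes had reads. With cells thinned to equal depth, Tfap2c had 5 or more reads in 24 of 35 Gata6-low cells and 2 of 13 Gata6-high cells. It reached 260 CPM in Gata6-low cells and 32.8 CPM in Gata6-high cells. In Gata6-low cells Eomes reached 71.9 CPM, Gata3 82.2 CPM, Elf5 0.318 CPM and the mesoderm gene Mixl1 48.9 CPM. The 4 fibroblast markers summed to at most 7.15 CPM in Gata6-high cells and 35.9 CPM in Gata6-low cells. No doublets were called. Of the Gata6-high cells 8 also held 5.71 to 63.4 CPM of Pou5f1, the core pluripotency factor, and the other 5 held at most 0.407 CPM. Whether any of the 8 were captured with a second cell was not tested.

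The transporter transcripts took a like share of reads in both states, 0.942 to 1.28% in Gata6-high cells (median 1.12%) and 0.665 to 1.62% in Gata6-low cells (median 1.09%). Their summed CPM had medians of 11819 in Gata6-high cells and 10317 in Gata6-low cells. Which carriers made up that share differed. A fold is the ratio of the mean CPM of the states, Gata6-high over Gata6-low, with 1 CPM added to each mean. By this measure 40 of the 134 members (29.9%) were at least 2-fold higher in Gata6-high cells, where 16% of all 8980 genes with the same read minimum were. At least 2-fold lower were 28 members (20.9%), beside 20.2% of all genes, so that this share was near the background at these settings. With 10 CPM added in place of 1 CPM, 17 members were lower, beside 12.0% of all genes, and at a minimum of 10 reads 61 of 200 were, beside 25.8%. At a minimum of 100 reads 26 of 97 members were higher, beside 14.4% of all genes. Of 66 Slc symbols with a mean of 10 up to 50 reads, which are not members, 16 were higher and 33 lower past 2-fold, beside 20.8% and 44.1% of the 2766 genes in that range of reads. Past 4-fold were 15 members higher and 13 lower, beside 6.63% and 6.85% of all genes. The median log2 ratio was 0.24 over the members and -0.16 over all genes. For no member were the ranges of the states apart, and 0.256% of all genes had such ranges. Within Gata6-low cells the Spearman correlation of a member's CPM with total count ran from -0.523 to 0.423, with a median of -0.00523.

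A member can reach the read minimum through 1 state alone, and its ratio is then partly set by that minimum. Such members include Slc27a2 and Slc26a11, with means of 0.114 and 0.678 CPM in Gata6-high cells. Others are Slc25a24, Slc39a13 and Slc13a5, with means of 1.42, 0.841 and 2.79 CPM in Gata6-low cells. A mean over 13 cells can also rest on few of them. Of the 40 higher members, 23 were above the Gata6-low median in at least 10 of the 13 Gata6-high cells, 8 had a median under 1 CPM in both states, and 15 came under 2-fold when a single cell was left out. Of the 28 lower members, 19 were below the Gata6-low median in at least 10 Gata6-high cells, 11 had both medians under 1 CPM, and 6 came under 2-fold without a single cell. The shares over all genes past 2-fold were not computed for these counts. The 40 and the 28 were chosen on means of these same cells, so their side of the median is partly set by that choice. Where the Gata6-low median is 0 CPM, any read puts a cell above it.

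**Figure D1:**
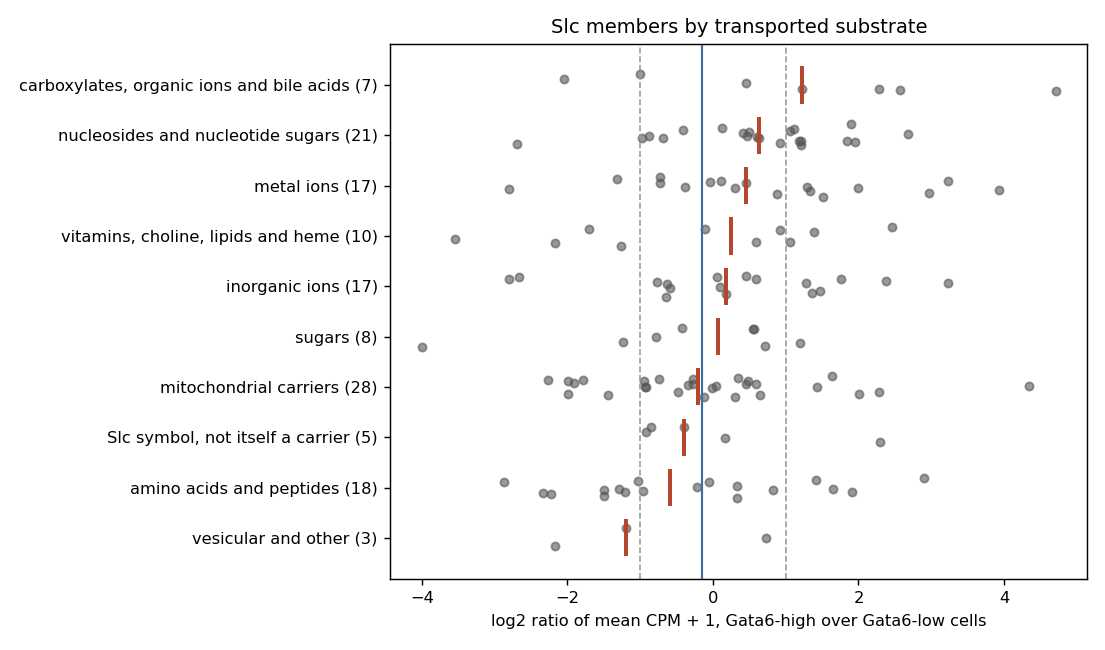
Each point is a member, placed by its log2 ratio of mean CPM + 1, Gata6-high over Gata6-low cells (x axis), in the class of substrate it is assigned to by family (rows, with the number of members). Red bars are class medians, the blue line is the median of all genes (-0.16) and dashed lines mark 2-fold; carboxylate carriers have the highest median (1.22) and the 3 vesicular members the lowest (-1.19).

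Promoters are shown for the 2 members with the largest ratios (Slc13a5, Slc25a24), for Slc16a1 and Slc35c1, which stand for the lactate and nucleotide sugar carriers, and for Slc38a2, which is abundant in both states. Each run is the 250 bases before a transcript start in RefSeq, build GRCm38.p6, 5′ to 3′ on the gene's strand. Capitals mark the GATA motif AGATAA or TTATCT and the GC box GGGCGG or CCGCCC, searched on both strands; the motifs do not overlap each other.
Slc13a5, first promoter, minus strand, chr11:72267162-72267411: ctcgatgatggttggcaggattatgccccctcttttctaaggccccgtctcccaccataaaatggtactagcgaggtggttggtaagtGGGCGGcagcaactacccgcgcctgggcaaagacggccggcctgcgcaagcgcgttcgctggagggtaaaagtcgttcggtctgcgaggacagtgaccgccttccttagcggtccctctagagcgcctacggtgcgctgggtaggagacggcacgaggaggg
Slc25a24, plus strand, chr3:109122899-109123148: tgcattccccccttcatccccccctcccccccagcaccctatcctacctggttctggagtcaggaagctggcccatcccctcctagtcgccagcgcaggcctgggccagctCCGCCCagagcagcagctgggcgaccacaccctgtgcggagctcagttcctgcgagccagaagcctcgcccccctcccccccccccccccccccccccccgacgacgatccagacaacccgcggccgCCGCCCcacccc
Slc16a1, plus strand, chr3:104638414-104638663: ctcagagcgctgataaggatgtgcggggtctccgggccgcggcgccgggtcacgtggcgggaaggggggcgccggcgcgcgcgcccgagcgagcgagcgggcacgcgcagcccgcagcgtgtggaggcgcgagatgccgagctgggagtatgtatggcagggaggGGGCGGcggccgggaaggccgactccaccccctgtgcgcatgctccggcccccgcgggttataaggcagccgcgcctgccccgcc
Slc35c1, first promoter, minus strand, chr2:92460519-92460768: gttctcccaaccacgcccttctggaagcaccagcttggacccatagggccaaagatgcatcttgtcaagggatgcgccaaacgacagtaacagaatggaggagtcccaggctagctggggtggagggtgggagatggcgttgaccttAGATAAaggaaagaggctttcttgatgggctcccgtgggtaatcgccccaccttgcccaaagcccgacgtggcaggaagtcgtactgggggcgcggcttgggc
Slc38a2, minus strand, chr15:96699729-96699978: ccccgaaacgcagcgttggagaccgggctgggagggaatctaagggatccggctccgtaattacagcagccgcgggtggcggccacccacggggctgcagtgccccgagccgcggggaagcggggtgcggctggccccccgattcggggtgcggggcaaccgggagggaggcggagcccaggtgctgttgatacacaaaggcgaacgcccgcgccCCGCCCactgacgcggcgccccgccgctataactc
In this window Slc13a5, Slc16a1 and Slc38a2 held 1 GC box each, Slc25a24 held 2, and Slc35c1 held 1 GATA motif. The table has a second promoter for Slc13a5, with 3 GC boxes and no GATA motif, and for Slc35c1, with no GATA motif; these are not shown. The sequence table matched 100 of the 134 members. The GATA motif lay in 3 of 28 matched members of the higher set (10.7%), in 2 of 16 of the lower set (12.5%) and in 6.68% of 6501 matched genes with the same read minimum. The GC box lay in 78.6% of the higher set, 62.5% of the lower set and 66.9% of those genes. Over all 27025 genes of the table the shares were 11.4% for the GATA motif and 35.4% for the GC box. Only the letters given above were searched, so other forms of these motifs are neither marked nor counted. A match of letters describes the sequence and says nothing of binding.

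Carriers of carboxylates and organic ions had the highest class median, a log2 ratio of 1.22 over 7 members. Of these 4 were higher and 1 lower past 2-fold, beside 16% and 20.2% of all genes. Slc13a5, the sodium-coupled citrate carrier of the plasma membrane, had the largest ratio of all members. It was at 0 to 297 CPM in Gata6-high cells (median 65.98) and at 0 to 39.9 CPM in Gata6-low cells (median 0.125). The mean was 26.2-fold higher, and 10 of 13 Gata6-high cells lay above every Gata6-low cell, while 2 had less than the Gata6-low median. Its reads summed to 9404 in Gata6-high cells (exact Poisson 95% interval 9215 to 9596) and to 839 in Gata6-low cells (783 to 898). With cells thinned to equal depth it was detected, at 5 or more reads, in 11 of 13 Gata6-high cells (84.6%, exact 95% interval 54.6 to 98.1%) and in 4 of 35 Gata6-low cells (11.4%, 3.20 to 26.7%). The intervals on summed reads cover counting error only. Those on detection treat the cells of 1 sample as independent and do not extend to other cultures. Its exons share 9.57% of their bases with 1700051A21Rik on the other strand, which the unstranded library cannot tell apart; that gene's own row averaged 0.167 reads.

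Slc16a1, the lactate and pyruvate carrier of the plasma membrane, had the most reads of the class. It was at 24.0 to 1188 CPM in Gata6-high cells (median 367) and at 0.845 to 245 CPM in Gata6-low cells (median 56.0), 4.87-fold higher by means. In 12 of 13 Gata6-high cells it exceeded the Gata6-low median, and in 8 it exceeded every Gata6-low cell. Its relative Slc16a3, the lactate exporter of glycolytic cells, differed less, at 0 to 62.4 CPM (median 16.4) in Gata6-high cells and 0 to 89.1 CPM (median 3.64) in Gata6-low cells, a log2 ratio of 0.45. Slc16a6, whose human relative carries ketone bodies, was 2.33-fold higher by means but had medians of 0.234 CPM in Gata6-high cells and 0 CPM in Gata6-low cells, and the fold was 1.37 without Gata6-high cell 22, 1.56 without Gata6-high cell 25 and 4.03 without Gata6-low cell 5. Slc16a6 shares 23.5% of its exon bases with Amz2 and Arsg. Slc10a3, a bile acid family member with no established substrate, was 5.94-fold higher by means with a median of 0 CPM in both states. It was 2.40-fold higher without Gata6-high cell 3 and 23.9-fold without Gata6-low cell 30, and 12.8% of its exon bases lie in Ubl4a. Slc22a18, of the organic ion carrier family, was 4.14-fold lower, with medians of 0 CPM in Gata6-high cells and 0.133 CPM in Gata6-low cells.

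**Figure D2:**
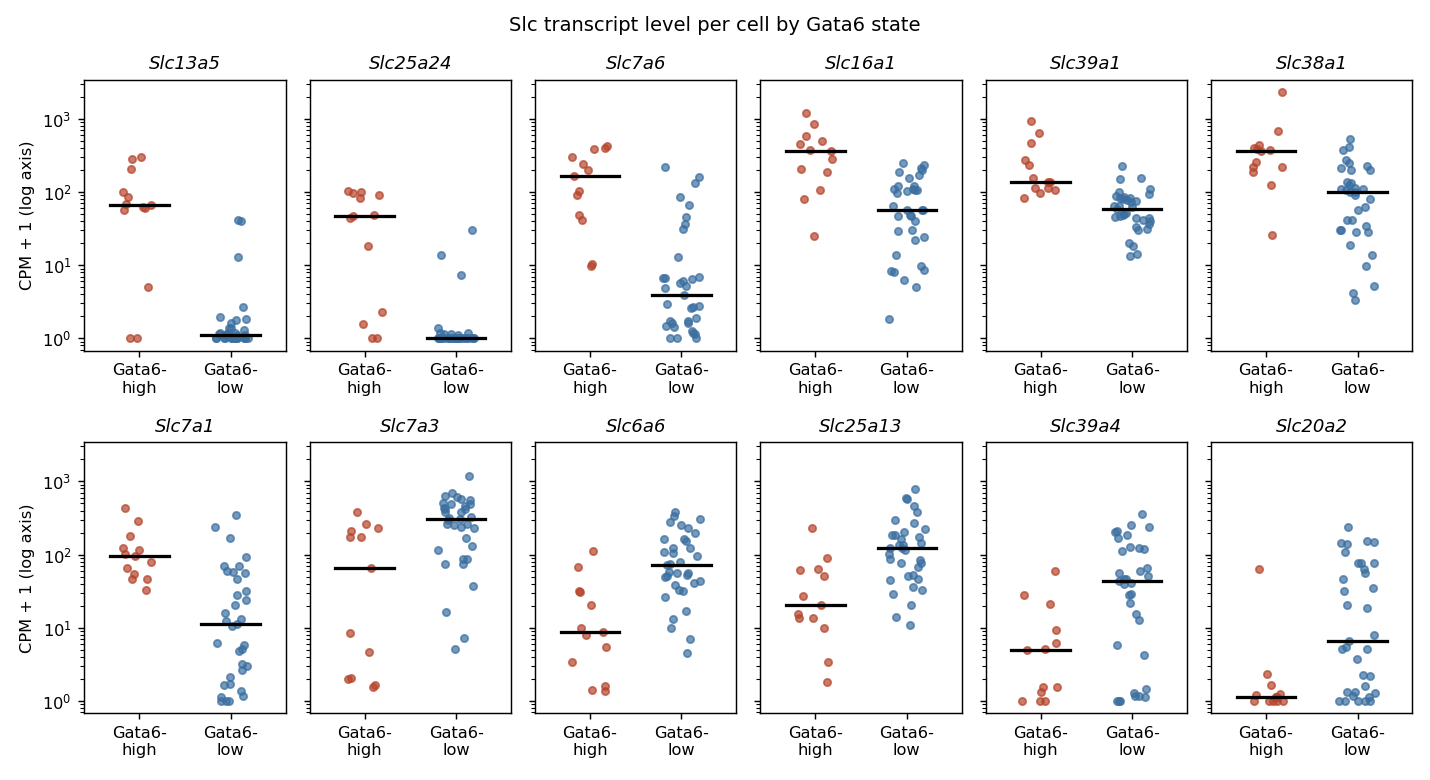
CPM + 1 on a log axis (y) in each of 13 Gata6-high and 35 Gata6-low cells (x) for 12 members; points are cells and bars are medians of the state. The first 7 panels (Slc13a5 to Slc7a1) show members higher in Gata6-high cells and the last 5 (Slc7a3 to Slc20a2) members lower in them, and the cells of the states overlap in every panel.

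Nucleotide sugar carriers of the Slc35 family, which bring activated sugars into the Golgi and endoplasmic reticulum, lay mostly on 1 side. Of 17 members 9 were higher past 2-fold and none lower, beside 16% and 20.2% of all genes. A ratio above 1 was found for 16, and the median log2 ratio was 1.06, beside -0.16 for all genes. With 10 CPM added in place of 1 CPM 4 of the 17 were higher past 2-fold, beside 12.1% of all genes, and at a minimum of 100 reads 5 of 12 were, beside 14.4%. Their summed level was 444 to 2348 CPM in Gata6-high cells (median 1063) and 162 to 978 CPM in Gata6-low cells (median 552). In 11 of 13 Gata6-high cells the sum was above the Gata6-low median and in 7 above every Gata6-low cell.

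Slc35c1, the Golgi carrier of GDP-fucose, was at 0 to 119 CPM in Gata6-high cells (median 15.6) and 0 to 45.7 CPM in Gata6-low cells (median 0). It was 6.43-fold higher, and no cell moved that value by more than 1.5 times. Slc35b4, a carrier of UDP-xylose and UDP-N-acetylglucosamine, was at 0.117 to 549 CPM in Gata6-high cells (median 32.7) and 0 to 180 CPM in Gata6-low cells (median 1.37), 3.59-fold higher. Slc35a2, the UDP-galactose carrier, was 3.72-fold higher (medians 3.27 CPM in Gata6-high cells and 0 CPM in Gata6-low cells). Slc35d2, a carrier of UDP-N-acetylglucosamine, was 2.32-fold higher, with medians of 54.2 and 1.43 CPM in Gata6-high and Gata6-low cells. Slc35a4, whose substrate is less settled, was also 2.32-fold higher, with medians of 111 and 39.1 CPM, but 1.95-fold without Gata6-high cell 25 and 1.88-fold without Gata6-high cell 33. Slc35f5, with no established substrate, was 3.86-fold higher. Slc35b3, which carries the sulfate donor PAPS, was 2.28-fold higher, and 4.51-fold without Gata6-low cell 39. It came under 2-fold without any of 3 Gata6-high cells, at the lowest 1.57-fold without cell 40. The UDP-glucuronic acid carrier Slc35d1 was 2.16-fold higher, and under 2-fold without any of 3 Gata6-high cells, at the lowest 1.47-fold without cell 4. Slc35a3, the UDP-N-acetylglucosamine carrier, was 2.09-fold higher, 1.37-fold without Gata6-high cell 33 and 1.89-fold without Gata6-high cell 4. Slc35b1, which carries ATP into the endoplasmic reticulum, was found in all 48 cells at 55.3 to 618 CPM in Gata6-high cells (median 202) and 26.5 to 392 CPM in Gata6-low cells (median 143).

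Of 4 carriers of nucleosides (Slc28 and Slc29), 1 was lower past 2-fold and none higher, beside 20.2% and 16% of all genes. Slc28a1, the concentrative pyrimidine nucleoside carrier, was at 0 to 45.6 CPM in Gata6-high cells (median 0.113) and 0 to 214 CPM in Gata6-low cells (median 11.1), 6.43-fold lower. It was lower than the Gata6-low median in 12 of 13 Gata6-high cells, and without Gata6-high cell 2, which held 45.6 CPM, it was 25.9-fold lower. The equilibrative carriers Slc29a1, Slc29a2 and Slc29a3 had log2 ratios of -0.68, -0.41 and -0.88.

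**Figure D3:**
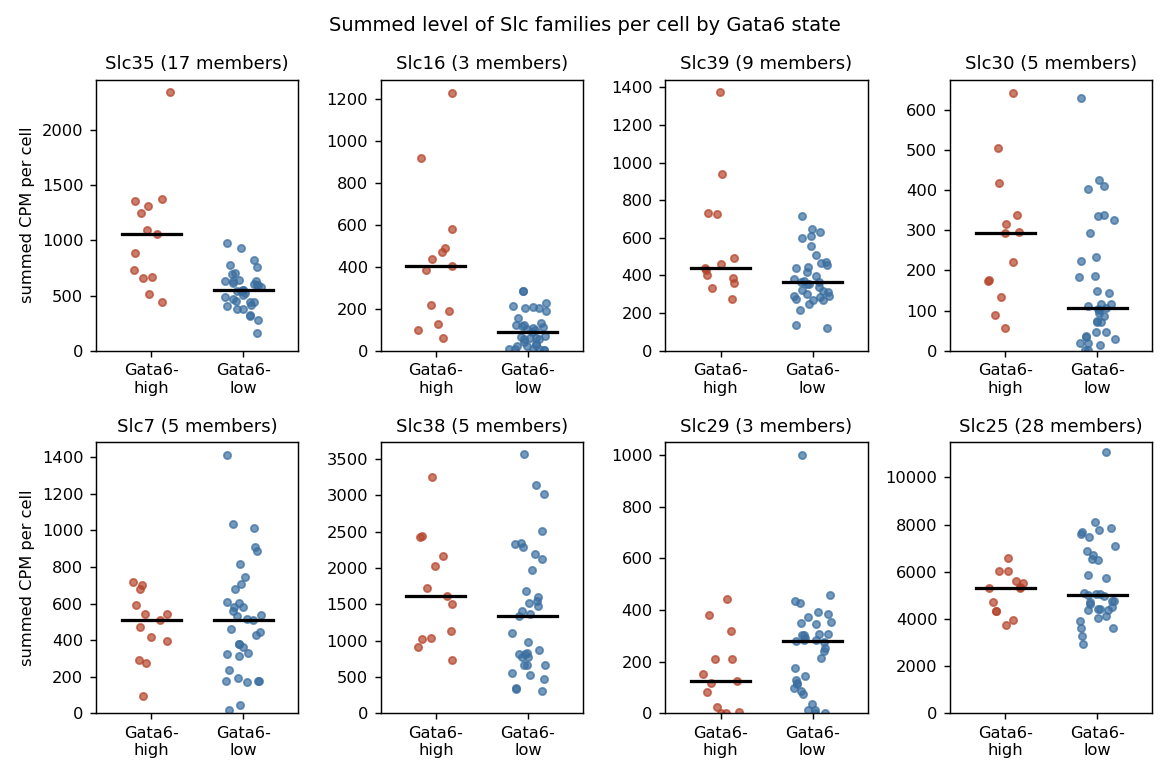
Summed CPM of the members of 8 families (y, linear axes from 0, a scale per panel) in each Gata6-high and Gata6-low cell (x); points are cells and bars medians, and the families were picked after their values were seen. The Slc35 sum has medians of 1063 CPM in Gata6-high and 552 CPM in Gata6-low cells, whereas the Slc7 sum has a median of 510 CPM in both.

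Amino acid and peptide carriers had 4 of 18 members higher and 8 lower past 2-fold, beside 16% and 20.2% of all genes. Their median log2 ratio was -0.59. Members of the Slc7 family, which holds the cationic amino acid carriers and the light chains that pair with Slc3a2, lay on both sides. Slc7a6, the light chain of an exchanger of cationic for neutral amino acids, was at 8.84 to 419 CPM in Gata6-high cells (median 164) and 0 to 219 CPM in Gata6-low cells (median 2.92). All 13 Gata6-high cells were above the Gata6-low median, and the mean was 7.46-fold higher. Slc7a1, the widely expressed arginine and lysine carrier, was at 31.6 to 428 CPM in Gata6-high cells (median 95.2) and 0 to 352 CPM in Gata6-low cells (median 10.2). It too exceeded the Gata6-low median in all 13 cells and was 3.13-fold higher.

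Slc7a3, another cationic amino acid carrier, went the other way. It was at 0.547 to 377 CPM in Gata6-high cells (median 65.0) and 4.22 to 1193 CPM in Gata6-low cells (median 310), 2.83-fold lower. Only 1 of 13 Gata6-high cells was above the Gata6-low median. Slc7a5, the light chain of the large neutral amino acid exchanger, was also 2.83-fold lower, with 0.547 to 42.1 CPM in Gata6-high cells (median 5.61) and 0.151 to 113 CPM in Gata6-low cells (median 24.9). Slc7a7, another cationic amino acid light chain, was 1.95-fold lower, and 3.09-fold lower without Gata6-high cell 41; it shares 7.00% of its exon bases with Oxa1l. The heavy chain Slc3a2 was found in all cells, at 50.8 to 922 CPM in Gata6-high cells (median 240) and 17.9 to 1134 CPM in Gata6-low cells (median 195). Summed over its 5 members, the Slc7 family had a median of 510 CPM in both states.

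Slc38a1, a sodium-coupled glutamine carrier, was at 24.9 to 2309 CPM in Gata6-high cells (median 365) and 2.37 to 527 CPM in Gata6-low cells (median 97.7). It was 3.76-fold higher, and 2.49-fold without Gata6-high cell 22. Its relative Slc38a2, the carrier induced by amino acid shortage, had a log2 ratio of -0.05, with 577 to 2218 CPM in Gata6-high cells (median 1232) and 169 to 3027 CPM in Gata6-low cells (median 966). Slc6a6, which takes up taurine, was at 0.365 to 112 CPM in Gata6-high cells (median 7.83) and 3.48 to 382 CPM in Gata6-low cells (median 71.3), 4.69-fold lower, and below the Gata6-low median in 12 of 13 cells. Slc6a8, the creatine carrier, was 2.44-fold lower, and 4.68-fold lower without Gata6-high cell 6. Slc43a2, a carrier of branched-chain amino acids, was at 0 to 4.09 CPM in Gata6-high cells (median 0.346) and 0 to 113 CPM in Gata6-low cells (median 2.79), 7.33-fold lower. Slc15a2, the oligopeptide carrier, was 5.06-fold lower with medians of 0 CPM in both states, and 8.09-fold lower without Gata6-high cell 4. Slc1a5, the neutral amino acid exchanger that carries glutamine, was 2.03-fold lower, so near 2-fold that 17 of the 48 cells, left out singly, took it below, at the least to 1.74-fold without Gata6-low cell 35; without Gata6-high cell 27 it was 6.09-fold lower.

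Metal ion carriers had 7 of 17 members higher and 2 lower, beside 16% and 20.2% of all genes. Their median log2 ratio was 0.45. Slc39 proteins bring zinc into the cytosol and Slc30 proteins remove it. Slc39a1, a zinc importer of the plasma membrane, was at 82.7 to 926 CPM in Gata6-high cells (median 135) and 12.5 to 226 CPM in Gata6-low cells (median 56.7). All 13 Gata6-high cells were above the Gata6-low median, and the mean was 4.00-fold higher. Slc30a7, which loads zinc into the Golgi, was 2.86-fold higher, with medians of 72.5 CPM in Gata6-high cells and 4.38 CPM in Gata6-low cells. Slc39a7, which releases zinc from the endoplasmic reticulum, was 2.52-fold higher, with medians of 36.8 and 14.8 CPM in Gata6-high and Gata6-low cells; 80.7% of its exon bases also belong to Gm20427, which has no row in the table.

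The largest metal ratios came from few cells. Slc39a13, a zinc carrier of the Golgi, was 15.3-fold higher with a median of 0 CPM in both states, and 8.98-fold without Gata6-high cell 3. It was above every Gata6-low cell in 4 Gata6-high cells, at up to 167 CPM. It shares 4.42% of its exon bases with Psmc3, which averaged 301 CPM in Gata6-high cells and 284 CPM in Gata6-low cells. Slc30a4, a zinc carrier of endosomes, was 9.41-fold higher (medians 2.73 CPM in Gata6-high cells and 0 CPM in Gata6-low cells), 5.79-fold without Gata6-high cell 25 and 21.8-fold without Gata6-low cell 28. Slc39a8, which carries zinc and manganese, was 7.83-fold higher with medians of 0 CPM in both states, and 23.6-fold without Gata6-low cell 42. Slc41a1, a magnesium carrier, was 2.46-fold higher, 1.59-fold without Gata6-high cell 3 and 1.50-fold without Gata6-high cell 38.

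Slc39a4, the importer through which the gut takes up zinc, was among the lowest ratios. It was at 0 to 59.4 CPM in Gata6-high cells (median 3.99) and 0 to 356 CPM in Gata6-low cells (median 42.4), 6.97-fold lower, and 11.2-fold lower without Gata6-high cell 2. In 12 of 13 Gata6-high cells it was below the Gata6-low median. Slc31a2, a copper carrier relative, was 2.48-fold lower, 1.01-fold without Gata6-low cell 44 and 4.28-fold without Gata6-high cell 38. Slc39a10, a plasma membrane zinc importer with the most reads of the class, was found in all cells, at 12.5 to 256 CPM in Gata6-high cells (median 78.9) and 15.5 to 443 CPM in Gata6-low cells (median 147).

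Mitochondrial carriers of the Slc25 family had 5 of 28 members higher and 6 lower, near the 16% and 20.2% of all genes. Their median log2 ratio was -0.20, beside -0.16 for all genes. Their summed level was 3732 to 6575 CPM in Gata6-high cells (median 5305) and 2942 to 11072 CPM in Gata6-low cells (median 5011). Slc25a24, the calcium-regulated carrier of ATP-magnesium and phosphate, was at 0 to 102 CPM in Gata6-high cells (median 45.4) and 0 to 29.1 CPM in Gata6-low cells (median 0). It was 20.2-fold higher, 30.5-fold without Gata6-low cell 16, and 8 of 13 Gata6-high cells were above every Gata6-low cell. Slc25a14, an uncoupling protein relative, was 4.87-fold higher, with medians of 28.1 and 0 CPM in Gata6-high and Gata6-low cells. Slc25a37, the iron importer mitoferrin, was 4.02-fold higher, and 2.61-fold without Gata6-high cell 40. Slc25a44, a branched-chain amino acid carrier, was 3.12-fold higher, and 1.25-fold without Gata6-high cell 38. Slc25a22, a glutamate carrier, was 2.71-fold higher, and 1.53-fold without Gata6-high cell 3.

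Both aspartate-glutamate carriers, which serve the malate-aspartate shuttle, were lower in Gata6-high cells. Slc25a13 was at 0.828 to 232 CPM in Gata6-high cells (median 19.4) and 10.0 to 797 CPM in Gata6-low cells (median 121), 3.74-fold lower. Slc25a12 was at 0 to 143 CPM in Gata6-high cells (median 18.4) and 0.575 to 412 CPM in Gata6-low cells (median 112), 3.44-fold lower. Each was below the Gata6-low median in 12 of 13 Gata6-high cells. Slc25a36, a pyrimidine nucleotide carrier, was at 0 to 36.6 CPM in Gata6-high cells (median 3.33) and 0 to 186 CPM in Gata6-low cells (median 22.6), 4.79-fold lower. Slc25a31, the germline ADP/ATP carrier, was 3.97-fold lower, 20.4-fold lower without Gata6-high cell 2 and 2.60-fold lower without Gata6-low cell 18. Slc25a38, a glycine carrier needed for heme synthesis, was 3.96-fold lower, and 7.02-fold lower without Gata6-high cell 41.

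Carriers of inorganic ions had 6 of 17 members higher and 2 lower, beside 16% and 20.2% of all genes. Their median log2 ratio was 0.18. Slc26a2, the sulfate carrier, was at 0 to 627 CPM in Gata6-high cells (median 15.9) and 0 to 195 CPM in Gata6-low cells (median 1.50), 5.22-fold higher, and 3.33-fold without Gata6-high cell 38. Of the potassium-chloride cotransporters, Slc12a7 was 3.38-fold higher, but 1.65-fold without Gata6-high cell 33, and Slc12a4 was 2.57-fold higher, but 1.56-fold without Gata6-high cell 3. Slc20a2, a phosphate importer, was at 0 to 63.5 CPM in Gata6-high cells (median 0.130) and 0 to 235 CPM in Gata6-low cells (median 5.67), 6.95-fold lower, and 34.3-fold lower without Gata6-high cell 27. The other phosphate importer, Slc20a1, had more reads and a log2 ratio of -0.63, with medians of 101 CPM in Gata6-high cells and 133 CPM in Gata6-low cells. Slc26a11, an anion exchanger, was 6.31-fold lower with medians of 0 CPM in both states, and 2.66-fold lower without Gata6-low cell 26.

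Sugar carriers, here with the other sodium-coupled Slc5 members, had 1 of 8 members higher and 2 lower, beside 16% and 20.2% of all genes. Their median log2 ratio was 0.06. Slc50a1, a glucose carrier, was at 0 to 307 CPM in Gata6-high cells (median 86.2) and 0 to 271 CPM in Gata6-low cells (median 16.8), 2.28-fold higher, 1.82-fold without Gata6-high cell 33, and above the Gata6-low median in 11 of 13 cells. Slc5a4b, a sodium-glucose cotransporter relative, had the lowest ratio of all members, 16.0-fold lower. Its reads summed to 2 in Gata6-high cells (exact Poisson 95% interval 0.242 to 7.22) and to 3411 in Gata6-low cells (3297 to 3527), where 10 of 35 cells had it at thinned depth and the highest held 164 CPM. Both medians were 0 CPM, and Slc5a4b passed the read minimum through Gata6-low cells alone. Its close relative Slc5a4a had 2 reads in all, and how reads that match both were counted is not given in the sources used here. Slc45a4, a putative sugar carrier, was 2.35-fold lower, 4.35-fold without Gata6-high cell 2 and 3.62-fold without Gata6-high cell 32.

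Carriers of vitamins, choline, lipids and heme had 3 of 10 members higher and 4 lower, beside 16% and 20.2% of all genes. Their median log2 ratio was 0.24. Slc44a3, a choline carrier relative, was 5.50-fold higher (medians 3.34 CPM in Gata6-high cells and 0 CPM in Gata6-low cells), 2.77-fold without Gata6-high cell 22 and 20.4-fold without Gata6-low cell 35. Slc19a1, the reduced folate carrier, was 2.61-fold higher, and 1.50-fold without Gata6-high cell 25. Slc19a2, the thiamine carrier, had the most reads of the class and a log2 ratio of 0.60, with medians of 33.9 CPM in Gata6-high cells and 21.1 CPM in Gata6-low cells. Slc27a2, which activates and takes up long fatty acids, was 11.7-fold lower and 5.64-fold lower without Gata6-low cell 26. It reached 0.922 CPM in Gata6-high cells and 240 CPM in Gata6-low cells, with medians of 0 CPM in both. Slc23a1, an ascorbate carrier, was 4.49-fold lower, 13.8-fold without Gata6-high cell 4 and 2.93-fold without Gata6-low cell 44. Slc44a1, a choline carrier, was 3.25-fold lower but 1.38-fold without Gata6-low cell 44.

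Of the 3 vesicular members Slc17a9, which loads ATP into vesicles, was at 0 to 64.1 CPM in Gata6-high cells (median 0.125) and 0 to 320 CPM in Gata6-low cells (median 9.35). It was 4.51-fold lower, and 12.7-fold lower without Gata6-high cell 27. The last 5 members carry an Slc symbol without being carriers, among them the scaffold Slc9a3r1, with medians of 14.3 CPM in Gata6-high cells and 42.5 CPM in Gata6-low cells. The pseudogene Slc2a4rg-ps was 4.93-fold higher with a median of 0 CPM in both states, 2.03-fold without Gata6-high cell 33 and 10.7-fold without Gata6-low cell 16.

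**Figure D4:**
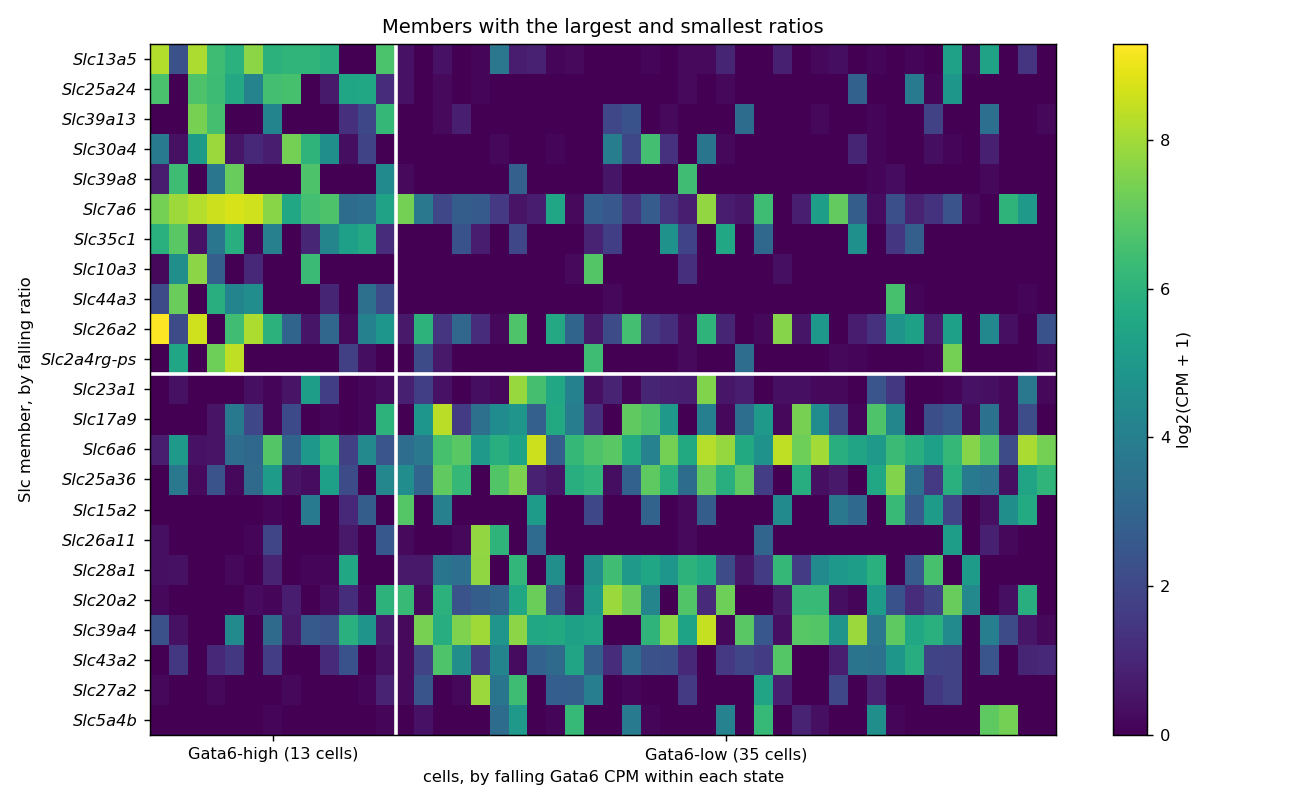
Colour gives log2(CPM + 1) of 11 of the 12 members with the largest ratios and the 12 with the smallest (rows, split by the white horizontal line) in 13 Gata6-high cells (left) and 35 Gata6-low cells (right), each by falling Gata6. Slc13a5, Slc25a24 and Slc7a6 are bright in most Gata6-high cells, while rows such as Slc10a3, Slc39a8 and Slc5a4b are bright in few cells of either state.

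The Gata6-high cells were not alike. In the 5 without Pou5f1 the mean of Slc7a3 was 14.2 CPM, in the 8 with Pou5f1 it was 179 CPM, and in Gata6-low cells 329 CPM. Slc25a13 followed the same order with 7.80, 69.3 and 174 CPM, and Slc6a6 with 8.07, 31.3 and 108 CPM. Slc7a6 ran in reverse with 299, 114 and 24.0 CPM, as did Slc13a5 with 174, 51.2 and 2.79 CPM and Slc38a1 with 736, 283 and 121 CPM. The mean of Slc38a1 in the 5 rests on Gata6-high cell 22, at 2309 CPM, and without it was 342 CPM. The mean of Slc6a6 in the 5 was 2.31 CPM without the same cell, and that of Slc7a3 was 1.47 CPM without Gata6-high cell 32. Slc26a2 was at 0, 3.48, 285, 390 and 627 CPM in the 5 cells without Pou5f1, and at most 85.6 CPM in the 8 with it. The mean of the 8 cells lay between the other means for 23 of the 28 lower members, for 24 of the 40 higher members and for 73 of all 134. The share over all genes was not computed. The 28 and the 40 were chosen on a mean that includes the 8 cells, so their order beside Gata6-low cells is partly set by that choice. With only the 5 cells kept as Gata6-high, 44 members were higher (32 of the 40 among them) and 42 lower (24 of the 28), beside 21.7% and 29.3% of all genes.

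Spread between cells was tested by setting each gene's variance of log2(CPM + 1) against a trend over genes of like mean, with the test fitted over all genes (modelGeneVar, one-sided, Benjamini-Hochberg adjusted, threshold 0.05). Its p-values describe these cells and do not extend to other cultures. Over the 48 cells 4 of 134 members passed, beside 2.03% of 11746 genes tested and 2.66% of those with the members' read minimum. Within Gata6-low cells alone 4 of 133 passed, beside 1.75% of 11454 genes and 2.25% of those with the members' read minimum. They were Slc7a3, Slc29a1, Slc25a4 and Slc38a2 in both cases. At an unadjusted p under 0.05 in the same test there were 8 members over all cells (5.97%) and 6 within Gata6-low cells (4.48%). Over all cells 45 members (33.6%) lay below the trend. The shares over all genes were not computed for these 3 counts, so they do not set the members apart from other genes.

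Slc7a3 had a variance of 6.89 with a trend of 1.74 (modelGeneVar adjusted p = 2.75e-11), and within Gata6-low cells 3.27 with a trend of 0.909 (adjusted p = 1.21e-09). It was detected in all 35 Gata6-low cells, yet spanned 4.22 to 1193 CPM there. Slc29a1, the equilibrative nucleoside carrier, had a variance of 6.09 with a trend of 2.10 (adjusted p = 0.000144), and within Gata6-low cells 5.49 with a trend of 1.57 (adjusted p = 5.26e-09). Its range was 0.365 to 443 CPM in Gata6-high cells (median 112) and 0.494 to 996 CPM in Gata6-low cells (median 207). The call over all cells was lost with a pseudocount of 10 CPM in place of 1 CPM (modelGeneVar adjusted p = 0.176).

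Slc25a4, the ADP/ATP carrier of heart and muscle, had a variance of 0.929 with a trend of 0.331 (adjusted p = 0.000364), and within Gata6-low cells 1.00 with a trend of 0.323 (adjusted p = 2.34e-06). It was at 733 to 2233 CPM in Gata6-high cells (median 1542) and 237 to 3428 CPM in Gata6-low cells (median 767). The widely expressed ADP/ATP carrier Slc25a5 did not pass, with a variance of 0.334 and a trend of 0.268 (adjusted p = 0.906), at 596 to 2913 CPM in Gata6-high cells and 956 to 5750 CPM in Gata6-low cells. Slc38a2 had a variance of 0.900 with a trend of 0.325 (adjusted p = 0.000493), and within Gata6-low cells 1.11 with a trend of 0.296 (adjusted p = 5.85e-11). The 4 calls depend on the measure of spread. By the squared coefficient of variation (modelGeneCV2) none of them passed over all cells, with adjusted p = 0.203 for Slc7a3, and within Gata6-low cells Slc25a4 and Slc38a2 passed.

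The smallest variances relative to trend were those of Slc7a5, Slc39a1, Slc16a3, Slc43a2 and Slc35b1, such as 1.60 with a trend of 2.51 for Slc39a1. These too depend on the measure of spread. By the squared coefficient of variation Slc39a1, alone among them, passed as variable over all cells (modelGeneCV2 adjusted p = 0.0118).

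**Figure D5:**
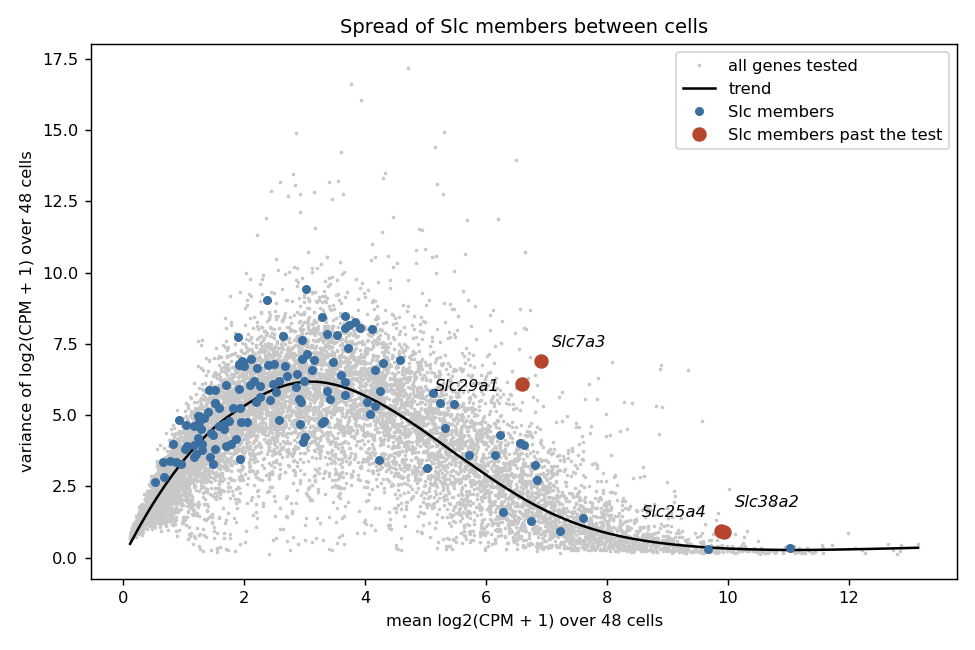
Variance of log2(CPM + 1) over 48 cells (y) by the mean (x) for all genes tested (grey), the Slc members (blue) and the 4 members past the test (red), with the fitted trend as a line. Slc7a3 and Slc29a1 lie far above the trend at middle levels, Slc25a4 and Slc38a2 at high levels.

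At thinned depth 9 of 134 members were found at 5 or more reads in all 48 cells, beside 20% of all genes with the same read minimum. They were Slc39a1, Slc38a1, Slc35b1, Slc25a4, Slc3a2, Slc38a2, Slc25a3, Slc25a5 and Slc39a10. Per kilobase of exon, the highest mean levels in both states were those of Slc25a5, Slc25a4, Slc25a3 (the phosphate carrier) and Slc38a2, in this order. Slc25a5 averaged 1069 CPM per kilobase in Gata6-high cells and 1484 in Gata6-low cells, and Slc25a4 650 and 430. Cells of the states overlap for each of them. Slc7a3 ranked 17 of 134 in Gata6-high cells and 5 in Gata6-low cells, Slc25a13 ranked 37 and 11, Slc39a1 5 and 15, and Slc16a1 7 and 24.

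Subunits and partners of 1 transporter were compared across the 35 Gata6-low cells by Spearman's rho of log2(CPM + 1), as a description; these values share each cell's library and scaling. Over all 8911 pairs of members rho had a median of 0.00397, with 5% of pairs below -0.284 and 5% above 0.293. Slc16a1 and Slc16a3, both lactate carriers, had 0.354, the only one of 10 pairs outside that range. By its making the range leaves out 5% of member pairs on each side, so 1 such pair is near the share set in advance. Slc7a3 and Slc7a1 had 0.231. The heavy chain Slc3a2 had 0.0952 with Slc7a5, 0.136 with Slc7a6 and 0.119 with Slc7a7. The zinc carriers Slc39a10 and Slc39a6, which form a complex, had -0.280. The ADP/ATP carriers Slc25a4 and Slc25a5 had 0.160, and Slc7a5 with Slc1a5 had -0.220. Basigin (Bsg), the chaperone of lactate carriers, had -0.278 with Slc16a1 and -0.250 with Slc16a3.

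Genes that work with these carriers or resemble them under other symbols gave 17 of 23 with enough reads. Of these 5 were higher and 2 lower past 2-fold, beside 16% and 20.2% of all genes. Bsg was at 94.1 to 1061 CPM in Gata6-high cells (median 370) and 70.8 to 1032 CPM in Gata6-low cells (median 190), 2.24-fold higher. Embigin (Emb), the other chaperone of lactate carriers, was 3.58-fold lower, with medians of 45.2 CPM in Gata6-high cells and 196 CPM in Gata6-low cells. Atp1b1, a subunit of the sodium pump whose gradient drives many carriers, was 3.03-fold higher. The organic anion carriers Slco2a1 and Slco3a1, which belong to a solute carrier family named otherwise, had medians of 68.3 and 68.6 CPM in Gata6-high cells and 0 CPM in Gata6-low cells.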

How the data were processed

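The authors deposited 1 table of whole-number read counts per gene, with no normalization, for 96 samples (48 cells on 2 lanes). The submitters' processing notes name STAR 2.3.1z12, Subread 1.4.5-p1, featureCounts and the build mm9, with no roles; the handling of reads that match several places is not given in the sources used here, and the kit does not mark strand.

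Lanes were summed, and CPM was computed from the deposited counts with edgeR 4.0.16 (TMMwsp factors) in R 4.3.3. Fold changes are ratios of mean CPM + 1. Variance was tested with scran 1.30.0 (modelGeneVar) over genes whose mean reached 10 reads. Detection used cells thinned to 4408953 reads and at least 5 reads, with exact Clopper-Pearson 95% intervals. The libraries carry no molecular identifiers, so amplified reads are not separate molecules. The Poisson intervals on summed reads cover counting error alone, and the detection intervals treat the cells of 1 sample as independent. Scripts were checked on simulated data. No edgeR or other count test between states was made, since the cells form 1 sample.

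Exon lengths and overlaps come from GENCODE M21 (GRCm38), which matched all 134 members, 1 of them by an older symbol; 13 share exon bases with another gene of the table. No coordinates were converted. Classes follow the family number, not each member's own substrate; Slc25a17, for example, is peroxisomal.

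Members and lists were chosen with earlier results of these data known. Named are the 12 largest and 12 smallest ratios, the variable members, the 5 smallest variances relative to trend, the member with most reads in each class and both genes of each pair; 1 of the 12 largest is not reported here. Further members of a class, and the family sums, were picked after their values were seen. Scaling, pseudocount, read minimum, Gata6 threshold, lane, depth and single cells were varied; leaving out Gata6-high cells with at least 5 CPM of Pou5f1 was added after the data were seen.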

Additional observations from a re-analysis of the deposited data

How the results depend on the processing

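No paired analysis was possible because all cells form 1 group. The count of 28 lower members became 17 with a pseudocount of 10 CPM, 61 (of 200) with a minimum of 10 reads and 65 (of 284) with no minimum; the 40 higher became 26 (of 97) with a minimum of 100 reads. The 9 higher Slc35 members became 4 with a pseudocount of 10 CPM and 5 (of 12) with a minimum of 100 reads. Testing by the squared coefficient of variation (modelGeneCV2, adjusted p under 0.05) gave 16 variable members over all cells, none of the 4. Within Gata6-low cells it gave 14, with 2 of the 4 (Slc25a4 and Slc38a2) among them. The cause was not tested. At 1 read or more, 17 members were found in all cells. Shares of all genes are not given here for the squared coefficient of variation, for detection at 1 read or for the count with no minimum. Leaving out single cells gave 34 to 42 higher and 27 to 35 lower members, 7 to 10 higher Slc35 members, 4 variable members each time over all cells and 4 to 5 within Gata6-low cells. Of 312 values of the 24 members with extreme ratios under other settings, 299 kept their side of 2-fold, 13 came under it and 0 turned; 9 of the 13 came from medians in place of means. Gata6 thresholds of 5 and 50 CPM gave the same cells. A few cells decide the ratio of most members with medians near 0 CPM, and reads below the detection minimum cannot show absence.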

Other observations

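Below the read minimum lay 216 symbols of the same rule, of which 66 averaged at least 10 reads. Of these 66, 16 were higher and 33 lower past 2-fold, beside 20.8% and 44.1% of the 2766 genes in that range of reads. Those named below were picked after their values were seen. Each reached 10 reads through the state in which it is high, so its difference is partly set by that choice. Slc36a4, of the proton-coupled amino acid carriers, was detected in 7 of 13 Gata6-high and 2 of 35 Gata6-low cells, with a highest level of 156 CPM in Gata6-high cells and 12.1 CPM in Gata6-low cells. Slc22a13b, an organic anion carrier relative, was detected in 5 Gata6-high cells and 0 Gata6-low cells. The glutamate carrier Slc1a1 had 0 reads in Gata6-high cells and was detected in 10 of 35 Gata6-low cells, at up to 86.4 CPM. Slc29a4, an equilibrative nucleoside carrier relative that carries monoamines, reached 0.18 CPM in Gata6-high cells and was detected in 12 of 35 Gata6-low cells, at up to 62.1 CPM.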
